A study of Homo sapiens with 6 samples.

Results

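The 6 genes described here, BAX, CASP2, DAPK3, TRAF2, CARD10 and AIFM2, act in cell death or in the survival signaling that opposes it, and are 6 of the 1273 genes in the deposited expression table of PANX1-expressing rhabdomyosarcoma cells. They were chosen by name, with their FPKM in the PANX1 and GFP libraries already known, from a table that itself holds the genes called as changed between these libraries. Their difference between PANX1 and GFP cells is therefore given as a description, without a test. BAX, CASP2 and DAPK3 were grouped as executioners of cell death, TRAF2 and CARD10 as survival or NF-κB adaptors, and AIFM2 as a suppressor of ferroptosis.

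In the mitochondrial pathway of apoptosis, BAX forms pores in the outer mitochondrial membrane, through which cytochrome c is released to activate caspases. Caspase 2 is an initiator caspase that is activated on a separate platform, the PIDDosome, and DAPK3 (also called ZIPK) is a serine/threonine kinase that promotes apoptosis and autophagy and phosphorylates myosin light chain. TRAF2 brings ubiquitin ligases to the TNF receptor and CARD10 (CARMA3) joins BCL10 and MALT1, and each leads to activation of NF-κB, a transcription factor that favors survival. AIFM2 (FSP1) regenerates the reduced form of coenzyme Q, which stops the lipid peroxidation that kills cells by ferroptosis.

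RNA-seq was performed on 3 libraries from Rh30 cells expressing PANX1 and 3 libraries from GFP control cells of the same line. Rh30 comes from a human alveolar rhabdomyosarcoma and is an established cell line. In both groups the construct was under a cumate switch, in which a repressor is released by cumate, both received 30 µg/mL cumate for 48 h, and both were kept under geneticin and puromycin selection. By the study's methods the lines were made by lentiviral infection of cells that stably express the CymR repressor, the control carries the empty plasmid, and GFP is expressed constitutively, whereas the labels place GFP under the switch. In bulk RNA, fewer cells of a type and less RNA per cell cannot be told apart. The unit is FPKM, a count of sequenced fragments that has been divided by transcript length and library size. The study's methods give the total reads of each library, but the table holds no counts, so the fragments behind each value are not known.

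PANX1 transcripts were measured at 37.8, 35.3 and 28.1 FPKM in the GFP libraries and at 124, 184 and 123 FPKM in the PANX1 libraries, listed here and below by replicate number, and each PANX1 library was above each GFP library. Of 12 markers fixed for rhabdomyosarcoma and the muscle lineage, DES and TNNI1 are in the table. DES, the muscle intermediate filament desmin, was measured at 214, 277 and 354 FPKM across the GFP and 384, 427 and 571 FPKM across the PANX1 libraries. TNNI1, a troponin of slow muscle, had 32.4, 26.5 and 33.1 FPKM across the GFP and 35.8, 45.2 and 64.4 FPKM across the PANX1 libraries. Both were thus higher in each PANX1 library than in any GFP library, as was 82.0% of the table. Their log2 ratios of mean FPKM, 0.71 for DES and 0.66 for TNNI1, were below the table's median of 1.23. The part of this in the results was not tested. The remaining muscle markers, and all markers fixed for epithelium, fibroblasts and blood, are not among its genes and were not analysed here. PANX1 replicate 3 stood apart from the other libraries across the table. The median log2 ratio to the mean GFP FPKM came to 0.77, 0.61 and 1.87 for PANX1 replicates 1, 2 and 3, and the main results are therefore also given without replicate 3. A median-of-ratios rescaling of the libraries moved the median log2 ratio of the table from 1.23 to 0.041, and values under that scaling, which are relative to the bulk of these selected genes, are given where they change a direction.

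The sequences before the annotated starts of the 6 genes are shown first. RefSeq promoter entries (GRCh38.p14) were found for all 6 genes, and the 250 bases before the annotated start are printed 5′ to 3′ on the strand of the gene. Capitals mark, on either strand, the GC box GGGCGG that binds the factor SP1, the CCAAT box, the E-box CACGTG that binds MYC and its relatives, the site TGAGTCA of the factor AP-1 and the core TGACGT of the cAMP response element. Neighbouring GC boxes can overlap, as in CARD10, and TATAAA, the TATA box, was also searched for.
BAX: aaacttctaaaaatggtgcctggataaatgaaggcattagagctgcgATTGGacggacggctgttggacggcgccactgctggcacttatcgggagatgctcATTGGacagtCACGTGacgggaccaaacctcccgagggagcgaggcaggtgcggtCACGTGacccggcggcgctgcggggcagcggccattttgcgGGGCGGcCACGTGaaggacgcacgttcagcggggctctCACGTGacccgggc
CASP2: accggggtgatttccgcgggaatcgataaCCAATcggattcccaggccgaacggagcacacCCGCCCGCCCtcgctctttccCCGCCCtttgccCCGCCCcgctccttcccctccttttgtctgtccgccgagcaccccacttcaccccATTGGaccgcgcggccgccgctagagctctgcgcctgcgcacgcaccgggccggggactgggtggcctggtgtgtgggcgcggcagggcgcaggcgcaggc
DAPK3: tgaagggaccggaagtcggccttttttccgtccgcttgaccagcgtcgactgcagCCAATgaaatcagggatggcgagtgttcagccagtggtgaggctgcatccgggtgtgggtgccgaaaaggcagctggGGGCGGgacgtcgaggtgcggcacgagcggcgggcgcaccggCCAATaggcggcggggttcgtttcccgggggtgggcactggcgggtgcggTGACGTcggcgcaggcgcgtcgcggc
TRAF2: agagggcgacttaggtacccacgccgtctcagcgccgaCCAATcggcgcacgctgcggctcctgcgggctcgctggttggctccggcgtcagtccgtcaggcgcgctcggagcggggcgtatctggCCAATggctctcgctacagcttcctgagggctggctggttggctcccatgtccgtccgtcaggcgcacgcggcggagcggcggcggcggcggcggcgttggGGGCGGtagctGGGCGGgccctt
CARD10: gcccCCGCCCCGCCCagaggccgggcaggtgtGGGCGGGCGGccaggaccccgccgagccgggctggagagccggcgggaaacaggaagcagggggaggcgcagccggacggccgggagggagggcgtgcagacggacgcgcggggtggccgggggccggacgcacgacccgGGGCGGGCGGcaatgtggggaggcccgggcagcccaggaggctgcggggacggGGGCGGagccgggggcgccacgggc
AIFM2: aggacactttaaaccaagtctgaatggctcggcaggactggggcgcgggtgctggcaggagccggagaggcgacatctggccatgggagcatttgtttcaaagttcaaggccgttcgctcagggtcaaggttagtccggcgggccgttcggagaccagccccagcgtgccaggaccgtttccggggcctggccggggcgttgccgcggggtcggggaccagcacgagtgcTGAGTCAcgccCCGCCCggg
The BAX window lies at chr19:48954625-48954874 on the plus strand, CASP2 at chr7:143288101-143288350 on the plus strand and DAPK3 at chr19:3971100-3971349 on the minus strand. TRAF2 lies at chr9:136886266-136886515 on the plus strand, CARD10 at chr22:37519416-37519665 on the minus strand and AIFM2 at chr10:70132826-70133075 on the minus strand. All 6 windows held at least 1 GC box, with 7 in CARD10, 4 in CASP2, 2 in TRAF2 and 1 each in BAX, DAPK3 and AIFM2. A GC box was present in 42.6% of all 35116 promoter windows and in 71.0% of the 1201 windows of genes with a higher mean FPKM in PANX1 cells. The BAX window held 4 E-boxes, where 6.34% of all windows and 9.91% of those of the higher genes held any. CCAAT boxes, present in 32.0% of all windows and 31.0% of those of the higher genes, numbered 2 each in BAX, CASP2, DAPK3 and TRAF2 and were not found in CARD10 and AIFM2. An AP-1 site, present in 4.20% of all windows and 3.50% of those of the higher genes, was found in AIFM2. The TGACGT sequence, with shares of 7.10% and 9.74%, was found in DAPK3. The TATA box sequence, present in 10.7% of all windows and 3.83% of those of the higher genes, was in none of the 6. GC content of these windows ran from 62.8% in BAX to 82.8% in CARD10, against a median of 58.0% over all windows. CASP2 has a second promoter entry at chr7:143289338-143289587, with a GC content of 44.0% and none of the 6 motifs. These motifs were picked after the sequences had been seen, and a match does not show binding.

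All 6 genes were higher in PANX1 than in GFP cells, and in each the lowest PANX1 library lay above the highest GFP library. This was so in 82.0% of the table, and from a choice made on this contrast nothing is read into the count. The log2 ratio of mean FPKM ran from 1.09 in BAX to 2.53 in CASP2, with a median of 1.76 over the 6 genes and 1.23 over the table. A log2 ratio above 1 was seen in 6 of the 6 genes and in 72.0% of the table. Without PANX1 replicate 3, CASP2 and DAPK3 stayed above 1, and the medians were 0.95 for the 6 genes and 0.70 for the table. In the fit across the whole table with limma on log2(FPKM + 1), 5 of the 6 genes had a Benjamini-Hochberg adjusted p-value under 0.05, where 33.5% of the table passed as higher and 0.707% as lower. AIFM2 was the gene that did not pass. As the rule used this contrast, that count is no test of the genes, and without any single one of the GFP libraries 0 of the 6 passed (2, 4 and 3 at an unadjusted p-value under 0.05 without GFP replicates 1, 2 and 3). Without PANX1 replicate 1, 0 of the 6 passed as well, where 303 of the 1273 genes of the table were called.

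**Figure D1:**
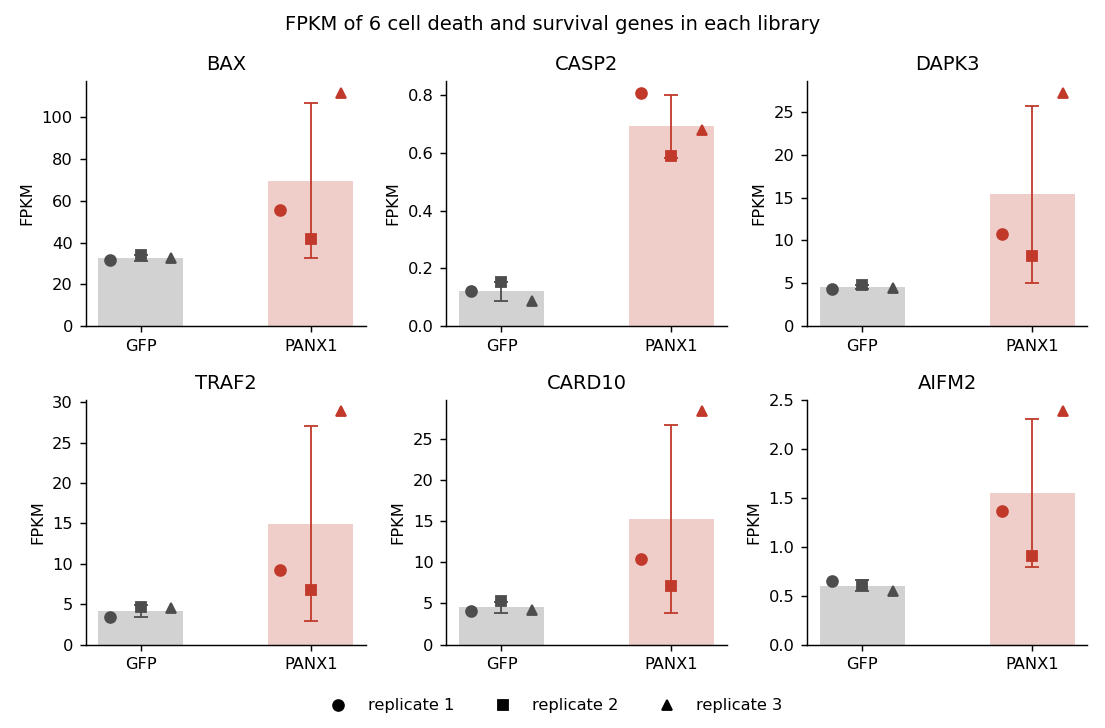
FPKM on a linear axis in the 3 GFP and 3 PANX1 libraries, with a panel for each gene, bars for the group mean, error bars for the SD and a symbol for each replicate number. PANX1 replicate 3 (triangle) is the highest library in every panel except CASP2, where replicate 1 is highest at 0.808 FPKM.

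BAX, listed as XLOC_011006 on chromosome 19 of hg19 from 49458117 to 49465055, was the most highly expressed of the 6 genes. Its FPKM was 31.4, 34.1 and 32.6 across the GFP and 55.5, 41.5 and 112 across the PANX1 libraries. The GFP libraries were close to each other, and PANX1 replicate 3 was more than the sum of the other PANX1 libraries. The log2 ratio of means was 1.09 for a ratio of 2.13, the smallest of the 6 genes, and 0.57 without PANX1 replicate 3. BAX was also the gene whose direction depended on the scaling, since after median-of-ratios scaling its log2 ratio was -0.11. Among all genes of the table its log2 ratio stood at the percentile 36.0.

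CASP2 (XLOC_020811, chromosome 7 of hg19, 142985308 to 143004789) had the lowest level and the largest ratio. Its FPKM was 0.120, 0.153 and 0.0856 across the GFP and 0.808, 0.589 and 0.678 across the PANX1 libraries. Each PANX1 library was far above each GFP library, and PANX1 replicate 3 lay between the other 2. The ratio of the means was 5.78, and the log2 ratio was 2.53 with all libraries and 2.55 without PANX1 replicate 3. In the log2 ratio of PANX1 replicate 3 to the mean of replicates 1 and 2, CASP2 had -0.044, whereas the median of the table was 1.17. Of the 1108 genes with a higher mean in PANX1 cells, 21, CASP2 among them, had a value this low or lower. The mean GFP level of CASP2 was at the percentile 2.04 of the table, and at such levels a pseudocount matters, so that 1 FPKM added to each group mean gave a log2 ratio of 0.60. This level is low for a widely expressed gene, and the table does not say which transcripts the FPKM covers, so it may stand for only some of those of the locus, and the level and each ratio with CASP2 are uncertain to that extent.

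DAPK3 (XLOC_011317, chromosome 19 of hg19, 3958452 to 3969826) was measured at 4.28, 4.81 and 4.49 FPKM across the GFP and at 10.8, 8.17 and 27.2 FPKM across the PANX1 libraries. All PANX1 values were above the GFP values, and the spread among the PANX1 libraries came mostly from replicate 3. It averaged 4.53 ± 0.265 FPKM in GFP cells (SD, n = 3) and 15.4 ± 10.3 FPKM in PANX1 cells (SD, n = 3), a log2 ratio of 1.77. Without PANX1 replicate 3 the log2 ratio was 1.07. A microRNA gene, MIR637, is annotated inside the DAPK3 locus on the same strand, and its reads cannot be separated from those of its host here. The same holds for MIR4479 in TRAF2 and for the RNA pseudogenes RN7SL535P and RN7SL481P in CASP2.

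TRAF2 (XLOC_022676, chromosome 9 of hg19, 139780965 to 139821067) was measured at 3.36, 4.60 and 4.51 FPKM across the GFP and at 9.23, 6.80 and 28.9 FPKM across the PANX1 libraries. Replicate 3 was again the highest PANX1 library. The log2 ratio of means was 1.85, and 0.95 without that library.

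CARD10 (XLOC_014811, chromosome 22 of hg19, 37886400 to 37915210) closely followed TRAF2. Its FPKM was 4.14, 5.31 and 4.16 across the GFP and 10.4, 7.09 and 28.4 across the PANX1 libraries, with a mean of 4.54 ± 0.672 (SD, n = 3) and 15.3 ± 11.5 (SD, n = 3). The groups did not overlap, and its log2 ratio was 1.75 with all libraries and 0.95 without PANX1 replicate 3.

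AIFM2 (XLOC_002969) was measured at 0.651, 0.606 and 0.544 FPKM across the GFP and at 1.36, 0.906 and 2.38 FPKM across the PANX1 libraries. Each PANX1 library was above the GFP libraries. It averaged 0.600 ± 0.0539 FPKM in GFP cells (SD, n = 3) and 1.55 ± 0.756 FPKM in PANX1 cells (SD, n = 3), a log2 ratio of 1.37, which was 0.92 without PANX1 replicate 3. The locus listed for it, chromosome 10 of hg19 from 71812357 to 71892690, reaches beyond the annotated AIFM2 gene, which spans 71857979 to 71892690 on the minus strand. It takes in MACROH2A2, a histone variant gene on the plus strand from 71812300 to 71872038, and the end of AIFM2 overlaps this gene. The library protocol given in the labels states no strand, so fragments from the overlap cannot be assigned to either gene with certainty.

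**Figure D2:**
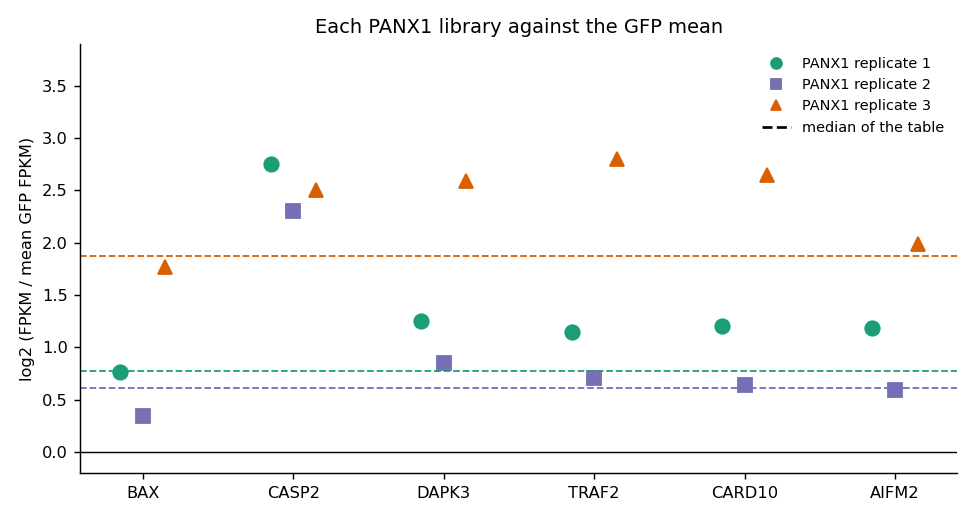
Log2 of the FPKM of each PANX1 library over the mean GFP FPKM for the 6 genes, with dashed lines at the median of the table in the same library (0.77, 0.61 and 1.87 for replicates 1, 2 and 3). Replicate 3 is the highest in 5 of the 6 genes and the 3 libraries lie closest together in CASP2.

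In 5 of the 6 genes the PANX1 libraries were ordered replicate 3, replicate 1 and replicate 2 from high to low, an order shared by 783 of the 1108 higher genes of the table. CASP2 alone among the 6 had the order 1, 3 and 2. Against the GFP mean, the log2 ratio of the 3 executioners had a median of 1.25, 0.85 and 2.50 in PANX1 replicates 1, 2 and 3. The corresponding medians of the 2 adaptors were 1.18, 0.68 and 2.72, and those of AIFM2 alone were 1.18, 0.59 and 1.99. The median log2 ratio of group means was 1.77 for executioners, 1.80 for adaptors and 1.37 for AIFM2. The executioners spanned 1.09 to 2.53, which encloses the adaptors at 1.75 and 1.85, so the groups by role did not separate by the size of their ratio.

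A single scaling factor for a library cancels in the ratio of 2 genes within it, whereas a change that follows GC content does not. FPKM of BAX divided by FPKM of TRAF2 was 9.35, 7.42 and 7.24 across the GFP and 6.02, 6.11 and 3.86 across the PANX1 libraries. BAX was thus lower relative to TRAF2 in each PANX1 library than in any GFP library, while its own FPKM was higher. On the log2 scale this ratio averaged 2.99 ± 0.204 in GFP cells (SD, n = 3) and 2.38 ± 0.375 in PANX1 cells (SD, n = 3). BAX over CARD10 was 7.59, 6.42 and 7.84 in the GFP and 5.32, 5.86 and 3.94 in the PANX1 libraries. BAX over DAPK3, both executioners, was 7.34, 7.09 and 7.27 in the GFP and 5.14, 5.09 and 4.10 in the PANX1 libraries. DAPK3 over TRAF2 overlapped between the groups, at 1.27, 1.05 and 0.996 in GFP and 1.17, 1.20 and 0.942 in PANX1 libraries. Its mean log2 difference, PANX1 minus GFP, was -0.0024, and that of DAPK3 over CARD10 was 0.059. CASP2 over TRAF2 was 0.0356, 0.0334 and 0.0190 across the GFP and 0.0876, 0.0865 and 0.0234 across the PANX1 libraries, and overlapped between the groups because PANX1 replicate 3 fell within the GFP range. Relative to AIFM2, CASP2 was 0.184, 0.253 and 0.157 in GFP and 0.593, 0.650 and 0.285 in PANX1 libraries, without overlap. Of the 15 pairs among the 6 genes, 6 did not overlap between the groups, namely BAX over each of the 5 other genes and CASP2 over AIFM2. Over all 800745 pairs of genes of the table without a 0, 40.5% did not overlap, and over pairs of genes with a higher mean in PANX1 cells 24.1%, so that nothing is read from the count. After the GC correction described below, chosen after seeing the data, BAX over DAPK3 and BAX over CARD10 overlapped, and their mean log2 differences were -0.045 and -0.038 in place of -0.61 and -0.55. BAX over TRAF2 was then -0.42 in place of -0.61, without overlap. CASP2 over TRAF2, which overlapped as deposited, had a difference of 2.03 in place of 0.99 and did not overlap. Of the 15 pairs, 9 then did not overlap, 4 of them among the 6 named above, so which genes shifted against each other depended on this correction. The share over all pairs of the table was not computed after the correction, so nothing is read from this count either.

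**Figure D3:**
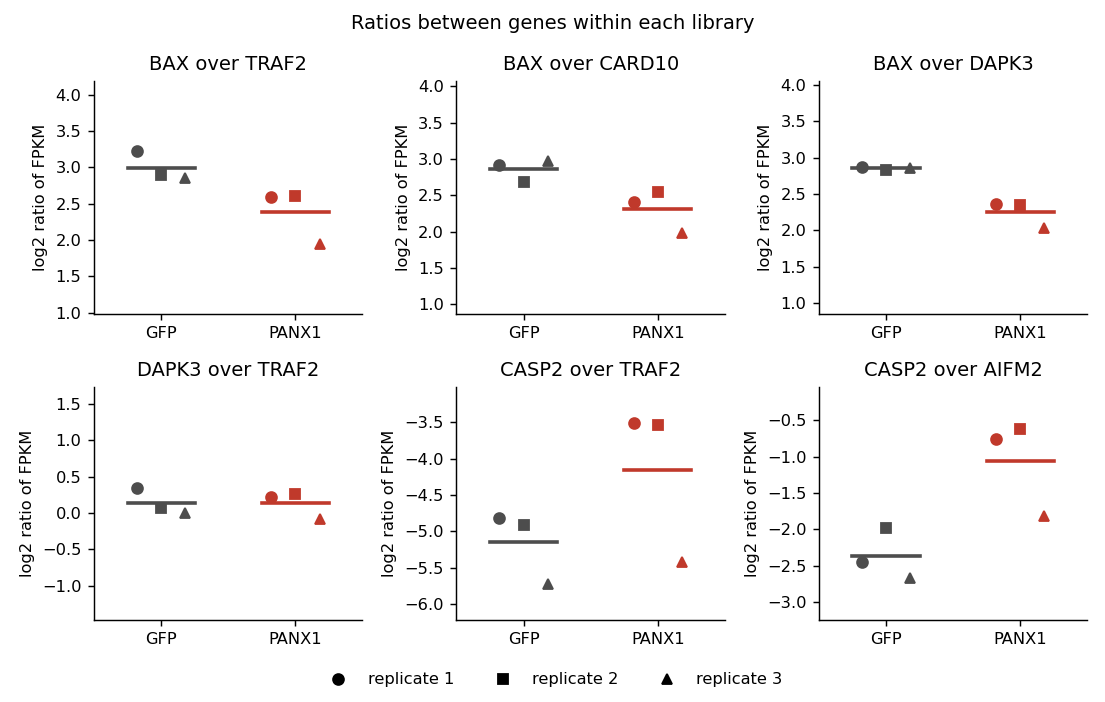
Log2 ratio of the FPKM of one gene over another within each library, with horizontal lines at the group mean and panels of equal height on the log2 scale. BAX is lower relative to TRAF2, CARD10 and DAPK3 in the 3 PANX1 libraries than in the 3 GFP libraries, whereas DAPK3 over TRAF2 overlaps, and after GC correction BAX over CARD10 and over DAPK3 overlap as well.

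As FPKM is scaled to transcript length, the levels of the genes can be ordered within a group. In GFP cells BAX had a mean of 32.7 FPKM, followed by CARD10 at 4.54, DAPK3 at 4.53 and TRAF2 at 4.15, then AIFM2 at 0.600 and CASP2 at 0.120. CARD10, DAPK3 and TRAF2 overlapped with their neighbours, while the other steps in the order did not. In PANX1 cells the order was BAX at 69.6, DAPK3 at 15.4, CARD10 at 15.3, TRAF2 at 15.0, AIFM2 at 1.55 and CASP2 at 0.692. The same 3 genes overlapped, and the positions of CARD10 and DAPK3 were exchanged within their spread.

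The genes most like each of the 6 were taken by Pearson's r of log2(FPKM + 1) over the 6 libraries with candidates limited to a mean of 1 FPKM or more. Values over 6 libraries in 2 groups are dominated by the group difference and by replicate 3, and are descriptions. For BAX these were MON1A (r = 1.000) and SART1 (r = 0.999), and 763 of 1160 candidates exceeded 0.95. For DAPK3 they were UNC45A and MAPK8IP3 (r = 1.000 and 0.999), for TRAF2 CHMP1A and RPS19BP1 (r = 1.000 and 1.000), for CARD10 CLPTM1 and CTSD (r = 0.999 and 0.999), and for AIFM2 ARHGAP1 and BMP1 (r = 0.998 and 0.997). For CASP2 they were MMP2, a matrix metalloprotease (r = 0.960), and PANX1 itself (r = 0.937), and of 1161 candidates 1 exceeded 0.95. MMP2 had an FPKM of 0.489, 0.299 and 0.532 in the GFP and 3.55, 3.44 and 4.84 in the PANX1 libraries. Between the 6 genes, r was 0.974 or higher in every pair without CASP2 and between 0.751 and 0.815 in the pairs with it.

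The pathways around these genes were followed with 7 gene lists, covering the BCL2 family, caspases and their regulators, death receptors and necroptosis, TRAF, CARD and NF-κB signaling, death-associated kinases, ferroptosis and p53 targets. Of their 178 symbols, 26 entries are in the table, the 6 genes included, and the other symbols were not analysed here. Of the 26, 22 had a mean that was higher in PANX1 cells and 4 a mean that was lower, and the median log2 ratio was 1.23, as over the table. Of the 20 entries beside the 6 genes, 6 passed as higher in limma's test and 0 as lower (adjusted p-value under 0.05), where 33.5% and 0.707% of the table did. These calls depended on the libraries, since of all 26 entries 0 were called without any single GFP library and 25 without PANX1 replicate 3, where 1140 of the 1273 genes were called. After median-of-ratios scaling 15 of the 26 were higher and 11 lower. After the GC correction described below 17 of 24 were higher, with BOK, TNFRSF12A, GPX4 and FDXR turning to -0.30, -0.13, -0.10 and -0.074. The median log2 ratio of the entries was 0.050 under that scaling and 0.24 after the GC correction, and the table's was 0.041 and 0.18. In 21 of the 22 higher entries PANX1 replicate 3 had the highest value, CASP2 being the exception. Without that library 22 were still higher and 4 lower.

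Among the BCL2 family, BOK, a relative of BAX and BAK, and MCL1, a guardian that restrains BAX and BAK, are in the table beside BAX. BOK averaged 9.11 ± 1.08 FPKM in GFP cells (SD, n = 3) and 20.2 ± 11.4 FPKM in PANX1 cells (SD, n = 3), with 13.4, 13.8 and 33.4 in PANX1 replicates 1, 2 and 3. Its log2 ratio was 1.15, and -0.054 after median-of-ratios scaling. MCL1 averaged 110 ± 14.5 FPKM in GFP cells (SD, n = 3) and 69.9 ± 15.4 FPKM in PANX1 cells (SD, n = 3), with 84.3, 71.8 and 53.7 in the PANX1 libraries, a log2 ratio of -0.65 and -0.49 without PANX1 replicate 3. In the deposited values the death effectors were thus higher and the guardian lower, without overlap in any of the 3. Of the whole table, 82.0% was higher and 11.9% lower without overlap. After median-of-ratios scaling all 3 were below 0, with BAX at -0.11 and MCL1 at -1.56. After the GC correction described below BAX was at 0.21, BOK at -0.30 and MCL1 at -0.36. Neither BOK nor MCL1 passed limma's test.

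PIDD, which encodes the scaffold on which caspase 2 is activated, is in the table together with CASP2. Its FPKM averaged 1.45 ± 0.351 (SD, n = 3) in GFP cells and was 3.75, 2.75 and 12.2 in PANX1 replicates 1, 2 and 3. The log2 ratio was 2.10, and 1.17 without replicate 3, and PIDD passed limma's test. Unlike CASP2, PIDD was highest in PANX1 replicate 3. CYCS, which encodes cytochrome c, averaged 68.5 ± 4.81 FPKM in GFP cells (SD, n = 3) and 40.3 ± 6.50 FPKM in PANX1 cells (SD, n = 3), a log2 ratio of -0.77. It did not pass the test, although its PANX1 values of 45.4, 42.4 and 33.0 were all below those of the GFP libraries. The list of death receptors and necroptosis has 2 entries in the table. TNFRSF12A, the TWEAK receptor that binds TRAF proteins, averaged 44.2 ± 4.32 FPKM in GFP cells (SD, n = 3) and 87.3 ± 49.0 FPKM in PANX1 cells (SD, n = 3). Its log2 ratio was 0.98, and -0.23 after median-of-ratios scaling. TNFRSF25 shares an entry with PLEKHG5, with a log2 ratio of 1.44, and its own level cannot be separated. Neither entry passed the test.

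The list of TRAF, CARD and NF-κB signaling had the most entries, with 10 of its 41 symbols in the table. All 10 had a higher mean in PANX1 cells without overlap between the groups, as had 82.0% of the table, with a median log2 ratio of 1.29 against 1.23. Median-of-ratios scaling left 6 of the 10 above 0, where the table's median was 0.041. TRAF2, CARD10, TRAF7 and SHARPIN, 4 of the 10, passed limma's test as higher, where 33.5% of the table did. SHARPIN, RNF31 (HOIP) and RBCK1 (HOIL-1), the subunits of the linear ubiquitin ligase complex that acts downstream of TRAF2 at the TNF receptor, were all in the table. SHARPIN averaged 4.07 ± 1.24 FPKM in GFP cells (SD, n = 3) and 16.3 ± 11.8 FPKM in PANX1 cells (SD, n = 3), a log2 ratio of 2.00. RNF31 had a log2 ratio of 1.26 and RBCK1 of 1.02, and the latter was -0.13 after median-of-ratios scaling. IKBKG (NEMO), the regulatory subunit of the IκB kinase that binds linear ubiquitin chains, averaged 3.14 ± 0.694 FPKM in GFP cells (SD, n = 3) and 9.79 ± 7.07 FPKM in PANX1 cells (SD, n = 3), a log2 ratio of 1.64. The other TRAF proteins in the table were TRAF7, with a log2 ratio of 1.32, and TRAF4, with 0.93 and -0.25 after median-of-ratios scaling. TNIP1, an inhibitor of NF-κB that binds the deubiquitinase A20, had a log2 ratio of 1.03, and the kinase IKBKE one of 1.12. These were -0.15 and -0.0067 after median-of-ratios scaling. Entries that promote NF-κB signaling and the inhibitor TNIP1 therefore shared a direction in the deposited values.

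**Figure D4:**
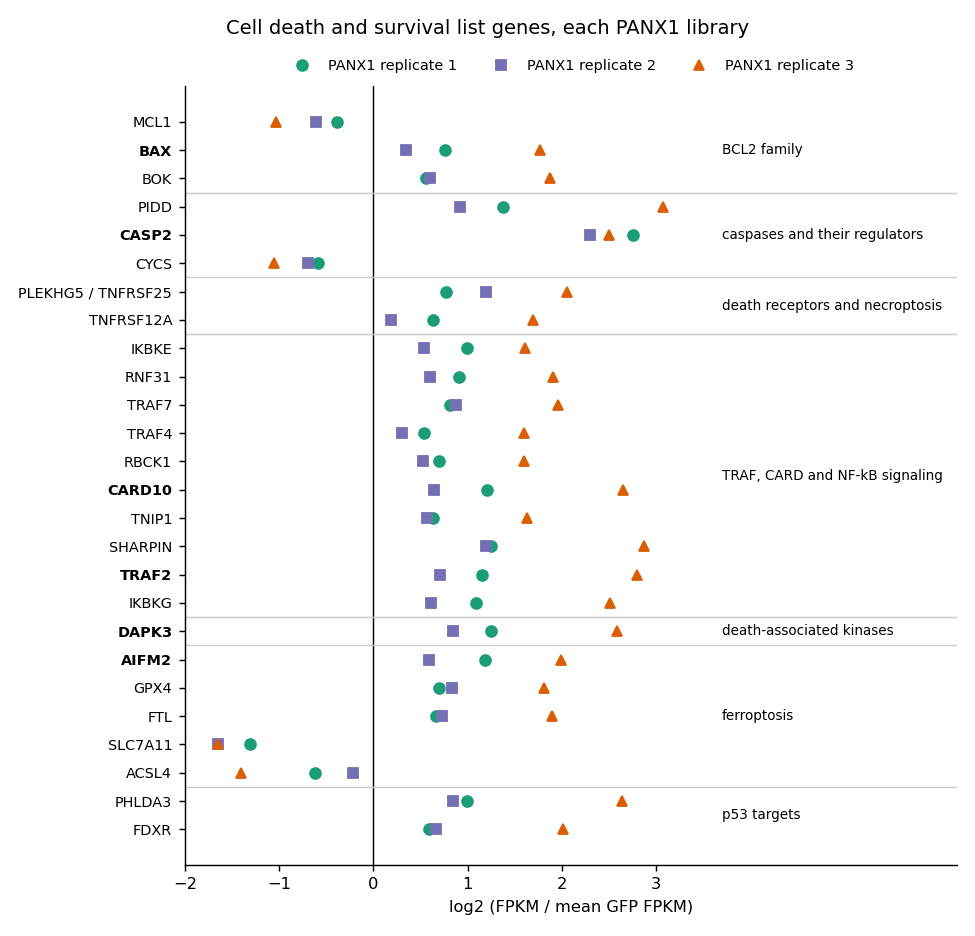
Log2 of the FPKM of each PANX1 library over the mean GFP FPKM for the 26 list entries, with each entry drawn under the first list that holds it (BAX, AIFM2 and PIDD are also p53 targets) and the 6 main genes in bold. MCL1, CYCS, SLC7A11 and ACSL4 lie below 0 in all 3 PANX1 libraries, SLC7A11 against a GFP mean raised by replicate 3, and the other 22 entries lie above 0.

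AIFM2 was accompanied in the table by 4 other genes of ferroptosis. GPX4, the peroxidase that removes lipid peroxides in parallel to AIFM2, averaged 22.6 ± 3.36 FPKM in GFP cells (SD, n = 3) and 52.1 ± 23.6 FPKM in PANX1 cells (SD, n = 3), with 36.7, 40.2 and 79.3 in the PANX1 libraries. Its log2 ratio was 1.20, and 0.77 without PANX1 replicate 3. FTL, the ferritin light chain that stores iron, averaged 361 ± 28.6 FPKM in GFP cells (SD, n = 3) and 839 ± 439 FPKM in PANX1 cells (SD, n = 3), a log2 ratio of 1.22. GPX4 and FTL, 2 of the 5 ferroptosis entries, passed limma's test as higher, where 33.5% of the table did. After median-of-ratios scaling their log2 ratios were 0.057 and 0.026, where the table's median was 0.041. After the GC correction they were -0.10 and 0.58. FTL is also a neighbour of BAX on chromosome 19, where it starts 3510 bases after the end of BAX. ACSL4, which makes the lipids that are peroxidised in ferroptosis, averaged 35.9 ± 2.95 FPKM in GFP cells (SD, n = 3) and 22.6 ± 8.71 FPKM in PANX1 cells (SD, n = 3), a log2 ratio of -0.67 that turned to 0.24 after a correction for GC content. It did not pass the test. SLC7A11, the cystine transporter, had 0.422, 0.321 and 2.79 FPKM in GFP replicates 1, 2 and 3 and 0.474, 0.376 and 0.375 in the PANX1 libraries. Its log2 ratio of -1.53 rested on GFP replicate 3, without which it was 0.14.

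AIFM2 and BAX are both targets of p53, and 3 further entries of the p53 list, PIDD, PHLDA3 and FDXR, are in the table. PHLDA3, an inhibitor of AKT, had 10.7 ± 0.434 FPKM (SD, n = 3) in GFP and 21.3, 19.2 and 66.6 in the PANX1 libraries, a log2 ratio of 1.74 that was 0.93 without replicate 3. FDXR, a mitochondrial reductase, had a log2 ratio of 1.25. The mean of all 5 entries was higher in PANX1 cells, as was that of 1108 of the 1273 genes, and their log2 ratios had a median of 1.37. BAX, PIDD and PHLDA3, 3 of the 5, passed limma's test as higher, where 33.5% of the table did. BAX was lower after median-of-ratios scaling and the other 4 entries were higher, where the table's median was 0.041.

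Transcript GC content moved with the excess in PANX1 replicate 3. Over the 1154 genes with a GC value, its log2 level over the mean of the other PANX1 libraries was correlated with GC content across genes (Pearson's r = 0.80, Spearman's rho = 0.66), which are not independent and share these libraries. CASP2 had the lowest GC content of the 6 genes at 48.0% and the lowest replicate 3 excess at -0.044. AIFM2 had 56.1% and 1.07, BAX 58.9% and 1.20, TRAF2 61.3% and 1.85, CARD10 65.4% and 1.695, and DAPK3 66.1% and 1.52. The median GC content was 60.1% for the 6 genes, 61.6% for the 1004 higher genes with a value and 39.2% for the 150 lower ones, against 49.1% for annotated protein-coding genes. After each library's slope on GC content was removed, the log2 ratio was 2.62 for CASP2, 0.73 for AIFM2, 0.66 for TRAF2 and between 0.21 and 0.24 for BAX, DAPK3 and CARD10. All 6 stayed above 0 and CASP2 changed least. The slopes were removed around the 49.1% of annotated protein-coding genes, and the size and sign of each corrected ratio depend on that reference. CASP2 lies close to it, so its small change followed from this choice. This correction was chosen with the pattern known and would take away any real difference tied to GC content as well, and the part of GC content in the ratios was not tested. The transcripts were 1358 to 4113 bases long, with a median of 2767, close to the table's 2654.

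**Figure D5:**
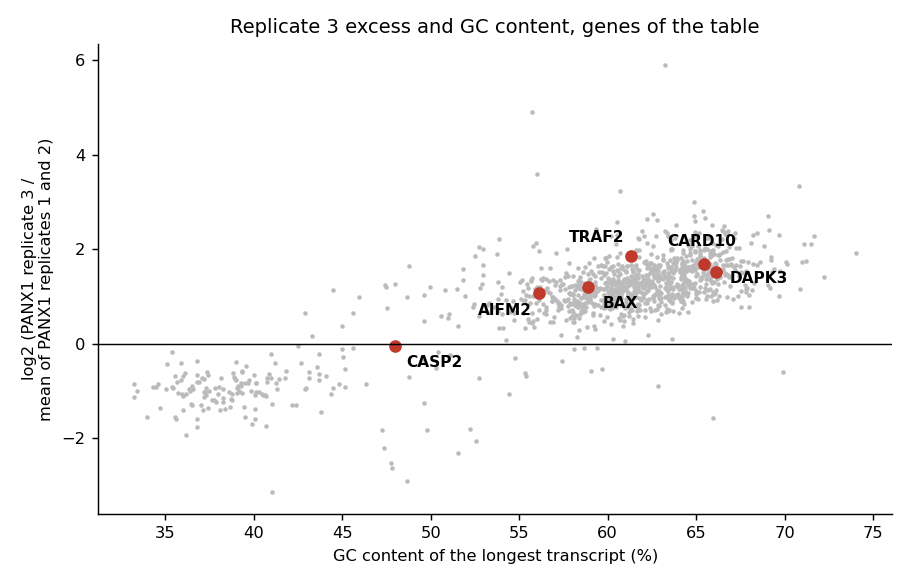
Log2 of the FPKM in PANX1 replicate 3 over the mean of PANX1 replicates 1 and 2, against the GC content of the longest transcript in percent, for 1154 genes of the table (grey) and the 6 main genes (red). Genes of higher GC content have a larger replicate 3 excess, and CASP2 lies near 0 at 48.0% GC.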

How the data were processed

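The 6 libraries were 3 from PANX1 and 3 from GFP Rh30 cells, grouped and numbered by their titles. The authors aligned reads to hg19 with TopHat2 2.0.13 and Bowtie2 2.2.3 and estimated the deposited FPKM with Cufflinks 2.2.1, and the FPKM are scaled for library size and transcript length by a method that is not given in the sources used here. The table holds the genes that the authors called, so all were selected on these libraries, and 32 of its 1273 entries name more than 1 gene. Loci count from 0 and 1 was added to starts. The study's methods call the replicates biological, the labels do not say that they were separate cultures, and p-values measure only the spread between these libraries.

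The 6 genes, the lists and the named genes (the 6, PANX1, the 2 most alike genes of each, and list entries, all where a list had at most 8 and otherwise the 4 highest and 4 lowest) were chosen with earlier results of these data known. RNF31 and TRAF7 of the NF-κB list fell outside that rule and were named after their values were seen. Log2 ratios are of mean FPKM without a pseudocount. Limma 3.58.1 in R 4.3.3 (lmFit, eBayes with a trend) was run on log2(FPKM + 1) over the table, with Benjamini-Hochberg adjustment and a threshold of 0.05, and was tested on simulated data. The simulation had independent noise and a minority of genes changed, in both directions. It held no outlying library such as PANX1 replicate 3, so it does not show how the fit behaves on these data. GC content and length are those of a gene's longest coding transcript, or else of its longest transcript, in the GENCODE annotation lifted to hg19, with a value for 1154 genes. For the calls, the slopes on GC content were fitted on log2(FPKM + 1) over these genes. For the ratios, they were fitted on log2 FPKM over those without a 0 and with a mean of at least 1 FPKM. CASP2 lies below that mean, so its corrected ratio used slopes fitted without it. Python 3.11.15 with pandas 2.3.3 was used for summaries.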

Additional observations from a re-analysis of the deposited data

How the results depend on the processing

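Limma called 435 genes of the table, 5 of the 6 genes and 11 of the 26 list entries. Without a trend in eBayes and with median-of-ratios scaling each of these counts was 0, with 770 higher and 54 lower genes and 4 of the 6 genes at an unadjusted p-value under 0.05 without the trend, and 145, 171 and 2 with that scaling. Correcting for GC content, an alternative chosen after seeing the data, left 9 genes of the table, 0 of the 6 (3 at an unadjusted p-value under 0.05) and 0 of the 26. A minimum mean FPKM of 1 left 325 of the 1161 genes tested and 3 of the 6. CASP2 was removed by the filter, and BAX was tested but no longer passed. With 1 library left out the counts ran from 9 (without GFP replicate 1) to 1140 (without PANX1 replicate 3) for the table (14 and 51 without GFP replicates 2 and 3, 739 without PANX1 replicate 2), from 0 to 6 for the 6 genes and from 0 to 25 for the list entries. The 0 of 6 arose without any of the GFP libraries or without PANX1 replicate 1. Without PANX1 replicate 1, 303 of the 1273 genes of the table were still called, and 6 of the 6 passed unadjusted. The 6 of 6 arose without PANX1 replicate 2 or 3.

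With the replicate number as a block, 614 genes of the table, 5 of the 6 and 14 of the 26 were called. Same-numbered libraries deviated from their group means with correlations across genes of 0.42, -0.36 and 0.14 for numbers 1, 2 and 3, and the sample descriptions number the cultures differently although the methods speak of matching replicates, so the numbers were not taken to pair the libraries.

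Median-of-ratios scaling reversed BAX to -0.11 and moved the log2 ratio to 1.54 for CASP2, 0.50 for DAPK3, 0.53 for TRAF2, 0.45 for CARD10, 0.18 for AIFM2 and 0.050 for the list median. The GC correction moved it to 0.21 for BAX, 0.24 for DAPK3, 0.66 for TRAF2, 0.24 for CARD10 and 0.24 for the list median. A pseudocount of 1 on the group means moved CASP2 to 0.60. The cause of these shifts was not tested. The ranges with each library left out were 0.57 to 1.35 for BAX, 2.34 to 2.75 for CASP2, 1.07 to 2.07 for DAPK3, 0.95 to 2.199 for TRAF2, 0.95 to 2.10 for CARD10 and 0.92 to 1.64 for AIFM2. Of 66 alternative ratios for the 6 genes 65 were above 0. As each PANX1 library lay above each GFP library in these genes, only median-of-ratios scaling and the GC correction could change a sign. Nothing is therefore read into that count. FPKM carry no counts, so the number of fragments behind the low CASP2 and AIFM2 values is not known, although the study's methods give total reads per library.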
